A study of Mus musculus with 9 samples.

Results

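The constitutive proteasome genes analysed here are those whose symbol is Psm followed by a letter from a to g and a number, together with Pomp, and without the interferon-inducible Psmb8, Psmb9, Psmb10, Psme1 and Psme2. The rule took 44 of the 18049 genes in the table, and all 44 were expressed well enough to be tested. They fall into 16 genes of the core particle (8 of the alpha ring and 8 of the beta ring), 17 of the regulatory particle (6 base ATPases, 3 other base subunits and 8 lid subunits), 3 activators and inhibitors, and 8 assembly factors. RNA was sequenced from bone marrow-derived macrophages of C57BL/6 mice aged 8 weeks, which are macrophages grown in culture from marrow cells, here in RPMI medium. Cells were given 1 µM 15d-PGJ2-PC, 1 µM 15d-PGJ2 or medium alone (control) and were frozen after 6 h, with 3 libraries per group and 9 in all. 15d-PGJ2 is a cyclopentenone prostaglandin, an electrophilic lipid that reacts with cysteine thiols; the labels do not spell out PC, and no structure is given for it. No genetic change is named for any group. Nothing in the labels says whether the 3 libraries of a group are separate animals or cultures. The p-values therefore reflect library-to-library spread, and that spread may be technical.

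The proteasome is the main protease of the cytosol and nucleus and destroys proteins tagged with ubiquitin. Its core particle is a barrel whose outer alpha rings gate the entrance and whose inner beta rings carry the catalytic threonines. The regulatory particle caps the barrel and recognises ubiquitin chains. Its lid removes the chains, and the ATPases of its base unfold the protein and thread it inwards. Dedicated chaperones build the rings and the base and leave the finished enzyme. In macrophages stimulated by interferon, alternative catalytic subunits replace the constitutive ones and give the immunoproteasome.

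Levels are FPKM (fragments scaled to gene length and to library depth), as the authors deposited them. Steps between low values correspond to about 5.34 to 5.5 M reads per library. Libraries of one group correlated at 0.991 to 0.992 and libraries of different groups at 0.972 to 0.988 (Pearson's r across genes, log2 scale), and no library stood apart from its group. All 8 macrophage markers were expressed, with a summed level of 5794 to 5967 FPKM with 15d-PGJ2-PC, 4954 to 5313 FPKM with 15d-PGJ2 and 6476 to 6678 FPKM in controls, so the defining markers of the labelled cell type were present. In bulk RNA, fewer cells of a type and less RNA per cell cannot be told apart.

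Most proteasome genes were higher with either compound than in controls, and many were lower with 15d-PGJ2-PC than with 15d-PGJ2. The summed FPKM of the 44 members was 4114 to 4233 with 15d-PGJ2-PC, 4700 to 5014 with 15d-PGJ2 and 2706 to 2799.7 in controls. As a share of the summed FPKM of all genes this was 0.851% to 0.880% with 15d-PGJ2-PC, 0.953% to 1.02% with 15d-PGJ2 and 0.576% to 0.582% in controls, and the groups did not overlap. Each gene was tested with limma on log2(FPKM + 1), with p-values adjusted over all 11309 tested genes by the Benjamini-Hochberg method and called at an adjusted p under 0.05. A log2 difference on that scale understates the change of a gene near or below 1 FPKM.

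With 15d-PGJ2-PC, 34 of the 44 members were called, where 27.8% of all tested genes were. All 34 were higher than in controls, where 13.8% of all tested genes were called higher, and the members' median log2 difference was 0.60, beside -0.004 over all tested genes. The limma test called 0 members lower in that comparison, where 14.1% of all tested genes were called lower, and 0 members were lower at an unadjusted p under 0.05. Psmd5, Psmd11 and Psma5 alone among the members reached a log2 difference of 1 with a call, where 1.05% of all tested genes did. With 15d-PGJ2, 38 of the 44 members were called in either direction, where 47.2% of all tested genes were. Of these, 37 were higher than in controls, where 22.2% of all tested genes were called higher. Psmd10 was lower, where 25% of all tested genes were called lower, and 6 members did not pass. The members' median log2 difference was 0.82, beside -0.02 over all tested genes. At least 1 on the log2 scale with a call was reached by 17 members, where 2.75% of all tested genes reached it.

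Set directly against 15d-PGJ2, 15d-PGJ2-PC gave lower levels of 26 of the 44 members, where 8.3% of all tested genes were called lower and 20.6% were called in either direction. The median log2 difference of the members was -0.19, beside 0.02 over all tested genes, and 18 members did not pass. The limma test called 0 members higher, where 12.3% of all tested genes were called higher, and 0 were higher at an unadjusted p under 0.05. Without replicate 2 of 15d-PGJ2-PC, Psmd10 was called higher at an adjusted p of 0.0421, within a range of 0.0421 to 0.656 over 17 alternative settings. Group means ran from 15d-PGJ2 at the top through 15d-PGJ2-PC to controls at the bottom for 36 members. For 28 of these the 3 groups did not overlap in any library. The same counts were not made over all tested genes, so how far the members stand out in this respect was not tested. The 2 comparisons with controls use the same 3 control libraries, and the comparisons with 15d-PGJ2 share its libraries too, so their values are given side by side only.

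**Figure D1:**
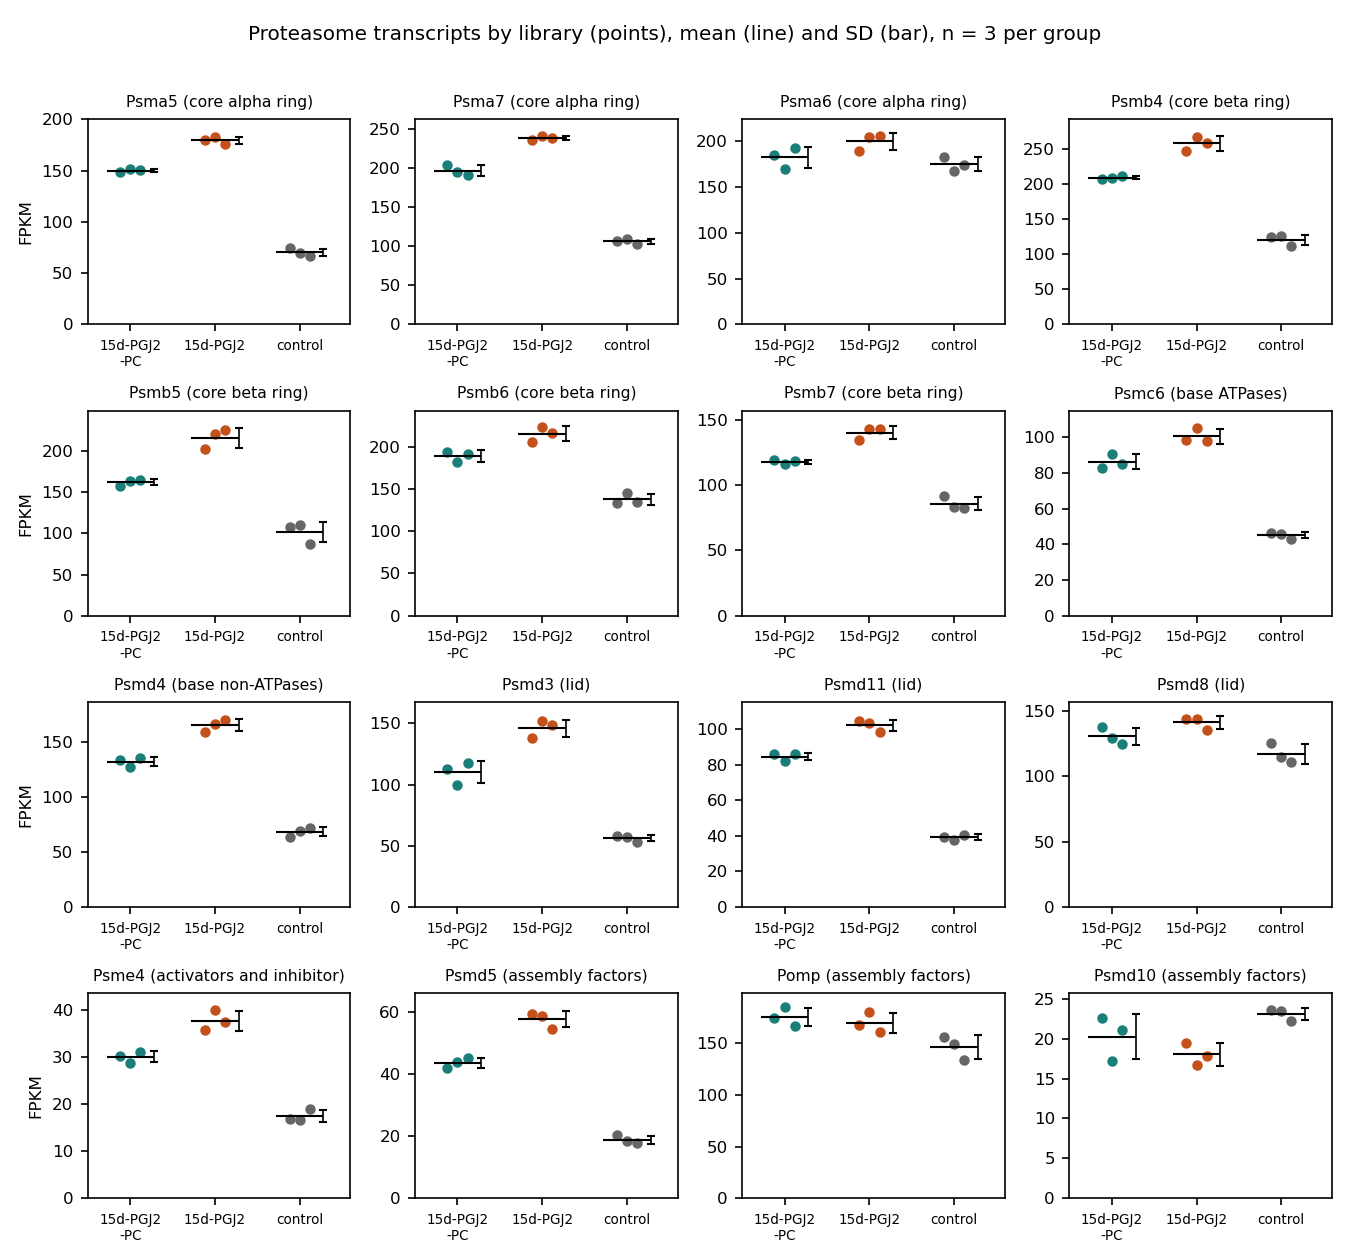
FPKM of selected proteasome genes in each library; each point is 1 library, and the lines and bars give the mean and SD of the 3 libraries of 15d-PGJ2-PC, 15d-PGJ2 and control. Psmd5 stands at 42.0 to 45.1 FPKM with 15d-PGJ2-PC and 54.8 to 59.5 FPKM with 15d-PGJ2, above 17.9 to 20.3 FPKM in controls, whereas Psmd10 does not rise with either compound.

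Genes listed as markers of other cell types moved with treatment as well. Fibroblast markers (5 genes) summed to 6.18 to 7.08 FPKM with 15d-PGJ2-PC, 6.59 to 7.89 FPKM with 15d-PGJ2 and 30.5 to 33.3 FPKM in controls. Epidermal markers (5 genes) summed to 0.51 to 1.37 FPKM with 15d-PGJ2-PC, 0.68 to 1.03 FPKM with 15d-PGJ2 and 20.1 to 24.6 FPKM in controls, and Krt1, Krt5, Krt14 and Lor were at 0 in every treated library. Both lists were low beside the macrophage markers. Dcn, Col3a1 and the 5 epidermal markers reached the filter of 1 FPKM in 3 libraries only through the controls. Their direction was thereby largely set in advance, so calls in both lists are not counted here. Erythroid markers (4 genes) summed to 0 to 0.91 FPKM with 15d-PGJ2-PC, 0.33 to 0.76 FPKM with 15d-PGJ2 and 19.6 to 31.8 FPKM in controls. Neutrophil markers (4 genes) summed to 15.1 to 20.95 FPKM with 15d-PGJ2-PC, 9.54 to 12.5 FPKM with 15d-PGJ2 and 23.7 to 27.9 FPKM in controls. Nearly all of this came from S100a8 and S100a9, while Ly6g and Elane were below 1 FPKM in every library and were not tested. S100a9 was called lower than in controls with each compound, and S100a8 with 15d-PGJ2 only. The macrophage markers themselves were called lower for 6 of 8 genes with 15d-PGJ2-PC and for 8 of 8 with 15d-PGJ2. Over all tested genes, 14.1% were called lower with 15d-PGJ2-PC and 25% with 15d-PGJ2. In 15d-PGJ2-PC against 15d-PGJ2, 8 of 8 macrophage markers (median log2 difference 0.26) and 2 of 2 tested neutrophil markers (0.69) were called higher. Over all tested genes, 12.3% were called higher in that comparison. The part of these shifts in the proteasome result was not tested.

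The alpha ring is built from Psma1 to Psma7, which form the outer ring and its gate, while Psma8 is a relative of Psma7 used in testis. Of the 8 genes, 6 rose with 15d-PGJ2-PC and 7 rose with 15d-PGJ2, with median log2 differences of 0.46 and 0.57. Without Psma8 the medians were 0.56 and 0.68 in that order. For this and the later classes, the share of all tested genes called higher was 13.8% with 15d-PGJ2-PC and 22.2% with 15d-PGJ2. Psma5 (chr3:108256926-108279952 in GRCm38, the assembly that mm10 names) was at 149, 151 and 150.44 FPKM with 15d-PGJ2-PC, 179.98, 183 and 176 FPKM with 15d-PGJ2 and 74.3, 69.8 and 67.2 FPKM in controls. Psma7 (chr2:180036367-180042464) was at 205, 195 and 191 FPKM with 15d-PGJ2-PC, 236, 241 and 239 FPKM with 15d-PGJ2 and 106, 109 and 103 FPKM in controls. Both genes were separated between all 3 groups, with 15d-PGJ2 highest. The log2 difference of Psma5 was 1.08 ± 0.040 with 15d-PGJ2-PC and 1.34 ± 0.040 with 15d-PGJ2 (SE; adjusted p = 4.93e-08 and 2.53e-09). That of Psma7 was 0.88 ± 0.036 with 15d-PGJ2-PC and 1.16 ± 0.036 with 15d-PGJ2 (adjusted p = 8.35e-08 and 3.28e-09).

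Psma1 was at 110.29, 112 and 107 FPKM with 15d-PGJ2-PC, 121, 124 and 128 FPKM with 15d-PGJ2 and 69.4, 72.8 and 75.3 FPKM in controls. Psma4 was at 128, 114 and 133 FPKM with 15d-PGJ2-PC, 126, 142 and 137 FPKM with 15d-PGJ2 and 87.6, 83.9 and 80.7 FPKM in controls. Both rose with each compound, and only Psma1 also differed between the compounds by the test (log2 difference -0.18, adjusted p = 0.00906; for Psma4 -0.11, 95% interval -0.25 to 0.03, adjusted p = 0.246). Psma2 was at 128, 131 and 140.34 FPKM with 15d-PGJ2-PC, 139, 149 and 144 FPKM with 15d-PGJ2 and 96.0, 112 and 104 FPKM in controls. Psma3 was at 73.6, 72.3 and 70.2 FPKM with 15d-PGJ2-PC, 77.7, 82.01 and 82.7 FPKM with 15d-PGJ2 and 61.04, 63.4 and 62.2 FPKM in controls. These rose by smaller amounts, 0.35 and 0.21 on the log2 scale with 15d-PGJ2-PC and 0.47 and 0.37 with 15d-PGJ2.

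Psma6 was the alpha subunit that moved least. It was at 185, 169.66 and 193 FPKM with 15d-PGJ2-PC, 189, 205 and 206 FPKM with 15d-PGJ2 and 183, 167 and 174 FPKM in controls, the highest level of any subunit in every control library. The 15d-PGJ2-PC and control libraries overlapped, and all 3 15d-PGJ2 libraries were above the controls. The log2 difference of Psma6 was 0.06 ± 0.054 with 15d-PGJ2-PC (adjusted p = 0.447) and 0.19 ± 0.054 with 15d-PGJ2 (adjusted p = 0.0128). Without control replicate 2 the adjusted p with 15d-PGJ2 was 0.053, within a range of 0.00685 to 0.053 over 17 alternative settings. Psma8 was close to the limit of detection, at 1.18, 0.32 and 1.18 FPKM with 15d-PGJ2-PC, 0.86, 0.97 and 1.51 FPKM with 15d-PGJ2 and 1.48, 1.60 and 0.96 FPKM in controls, which is about 3 to 15 reads per library. Its groups overlapped and it passed in no comparison.

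The beta ring holds the active sites. Psmb5, Psmb6 and Psmb7 carry the chymotrypsin-like, caspase-like and trypsin-like activities, Psmb1 to Psmb4 are structural, and Psmb11 is the catalytic subunit of cortical epithelium in the thymus. Of the 8 genes, all but Psmb11 rose with each compound, with a median log2 difference of 0.47 with 15d-PGJ2-PC and 0.67 with 15d-PGJ2. Without Psmb11 the medians were 0.48 and 0.70 in that order. Psmb5 (chr14:54614120-54617995) was at 158, 163 and 165 FPKM with 15d-PGJ2-PC, 202, 219.95 and 225 FPKM with 15d-PGJ2 and 108, 109 and 86.9 FPKM in controls. The 3 groups were apart, and the step between the compounds was the widest in the core (log2 difference of 15d-PGJ2-PC against 15d-PGJ2 -0.41 ± 0.078, adjusted p = 0.0038). Psmb6 (chr11:70525324-70527858) was at 194, 181 and 192 FPKM with 15d-PGJ2-PC, 206, 224 and 216 FPKM with 15d-PGJ2 and 133, 146 and 134 FPKM in controls. Psmb7 (chr2:38588046-38643952) was at 119, 116 and 118 FPKM with 15d-PGJ2-PC, 135, 143 and 143 FPKM with 15d-PGJ2 and 91.6, 83.6 and 82.4 FPKM in controls. For both genes the 3 groups were again apart with 15d-PGJ2 highest, and the rise over controls was 0.46 for Psmb6 and 0.46 for Psmb7 with 15d-PGJ2-PC and 0.64 for Psmb6 and 0.70 for Psmb7 with 15d-PGJ2. The reference annotation names pseudogenes of Psma5, Psmb5, Psmb6 and Psmb7, and reads could have been split with them.

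Psmb4 was at 208, 209 and 212 FPKM with 15d-PGJ2-PC, 247, 267 and 259 FPKM with 15d-PGJ2 and 124, 125 and 112 FPKM in controls. Psmb3 was at 179, 176 and 170.0 FPKM with 15d-PGJ2-PC, 201, 228 and 209 FPKM with 15d-PGJ2 and 103, 113 and 98.5 FPKM in controls. Both stood apart in all 3 groups, and Psmb4 was the most abundant subunit in each of the 6 treated libraries. The log2 difference of Psmb4 was 0.79 ± 0.047 with 15d-PGJ2-PC and 1.09 ± 0.047 with 15d-PGJ2 (adjusted p = 1.05e-06 and 2.37e-08). Psmb1 was at 121, 114 and 119 FPKM with 15d-PGJ2-PC, 128, 135 and 131 FPKM with 15d-PGJ2 and 97.8, 88.9 and 91.6 FPKM in controls. Psmb2 was at 142, 127 and 139 FPKM with 15d-PGJ2-PC, 140.34, 152 and 146 FPKM with 15d-PGJ2 and 94.5, 99.4 and 97.9 FPKM in controls. Both were above controls in every treated library, while the 2 treated groups overlapped for Psmb2. Psmb11 was at 1.43, 1.23 and 1.83 FPKM with 15d-PGJ2-PC, 1.17, 1.27 and 1.64 FPKM with 15d-PGJ2 and 1.64, 1.87 and 1.21 FPKM in controls, about 27 to 43 reads per library, with overlapping groups and no call.

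The base of the regulatory particle holds the ring of ATPases Psmc1 to Psmc6, which unfolds substrates. All 6 rose with each compound, with medians of 0.81 with 15d-PGJ2-PC and 1.04 with 15d-PGJ2 and a narrow range of 0.64 to 0.92 and 0.81 to 1.14. Psmc6 (chr14:45329823-45349074) was at 82.7, 90.8 and 85.02 FPKM with 15d-PGJ2-PC, 98.7, 105 and 97.7 FPKM with 15d-PGJ2 and 46.5, 45.7 and 43.2 FPKM in controls. Psmc4 was at 87.3, 97.6 and 96.5 FPKM with 15d-PGJ2-PC, 104, 113 and 112 FPKM with 15d-PGJ2 and 50.1, 50.01 and 51.97 FPKM in controls. Psmc1 was at 149.71, 152 and 155 FPKM with 15d-PGJ2-PC, 162, 182 and 172 FPKM with 15d-PGJ2 and 92.8, 100.46 and 99.98 FPKM in controls. The 3 groups were apart for each, and Psmc1 had the smallest rise among the ATPases from the highest control level. Psmc2 was at 113, 100.4 and 109 FPKM with 15d-PGJ2-PC, 121, 129.82 and 127 FPKM with 15d-PGJ2 and 61.5, 58.3 and 62.7 FPKM in controls. Psmc3 was at 128, 115 and 126 FPKM with 15d-PGJ2-PC, 134, 139 and 133 FPKM with 15d-PGJ2 and 71.5, 75.8 and 72.6 FPKM in controls. Psmc5 was at 112, 102 and 107 FPKM with 15d-PGJ2-PC, 121, 126 and 132 FPKM with 15d-PGJ2 and 62.9, 61.1 and 58.8 FPKM in controls. Between the compounds, 5 of the 6 were lower with 15d-PGJ2-PC, and Psmc3 did not pass (log2 difference -0.13, 95% interval -0.24 to -0.03, adjusted p = 0.0707) although its groups did not overlap.

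Psmd1 and Psmd2, the large scaffold subunits of the base, and Psmd4, a receptor for ubiquitin chains, rose with both compounds. Psmd4 (chr3:95032688-95042614) was at 134, 128 and 136 FPKM with 15d-PGJ2-PC, 159.76, 167 and 170.49 FPKM with 15d-PGJ2 and 64.2, 69.4 and 72.2 FPKM in controls. Psmd1 was at 76.6, 75.2 and 75.05 FPKM with 15d-PGJ2-PC, 84.6, 92.2 and 86.1 FPKM with 15d-PGJ2 and 39.7, 40.1 and 39.6 FPKM in controls. Psmd2 was at 162, 159.86 and 166 FPKM with 15d-PGJ2-PC, 181, 186 and 187 FPKM with 15d-PGJ2 and 98.1, 96.6 and 98.1 FPKM in controls. The 3 groups were apart for each gene, and each was lower with 15d-PGJ2-PC than with 15d-PGJ2. The log2 difference of Psmd4 was 0.94 ± 0.048 with 15d-PGJ2-PC and 1.26 ± 0.048 with 15d-PGJ2 (adjusted p = 3.77e-07 and 9.93e-09).

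The lid sits on the base and holds Psmd14, the metalloprotease that removes ubiquitin chains, with its partner Psmd7 and the scaffold subunits Psmd3, Psmd6, Psmd8, Psmd11, Psmd12 and Psmd13. All 8 of these members rose with each compound, with a median log2 difference of 0.71 with 15d-PGJ2-PC and 1.01 with 15d-PGJ2. Shfm1, a small lid subunit outside the symbol rule, did not pass against controls with either compound. Psmd3 (chr11:98682554-98695978) was at 113, 100.01 and 118 FPKM with 15d-PGJ2-PC, 138, 152 and 148 FPKM with 15d-PGJ2 and 57.7, 57.2 and 53.2 FPKM in controls. Psmd11 (chr11:80428615-80473248) was at 85.8, 82.3 and 85.8 FPKM with 15d-PGJ2-PC, 105, 104 and 98.5 FPKM with 15d-PGJ2 and 39.6, 37.7 and 40.8 FPKM in controls. Psmd14 (chr2:61711694-61800376) was at 69.4, 67.2 and 63.4 FPKM with 15d-PGJ2-PC, 84.7, 97.6 and 90.3 FPKM with 15d-PGJ2 and 44.2, 40.5 and 39.7 FPKM in controls. For each of them every 15d-PGJ2-PC library lay between the 15d-PGJ2 and the control libraries. Psmd3 had the largest log2 difference of any subunit with 15d-PGJ2, 1.37 ± 0.063 (adjusted p = 3.33e-08), and Psmd11 the largest with 15d-PGJ2-PC, 1.09 ± 0.043 (adjusted p = 6.5e-08). Psmd14 had the largest difference of any member between the compounds, -0.44 ± 0.062 (adjusted p = 0.000572).

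Psmd12 was at 61.3, 58.8 and 67.2 FPKM with 15d-PGJ2-PC, 68.7, 71.1 and 81.3 FPKM with 15d-PGJ2 and 34.96, 35.0 and 33.5 FPKM in controls. Psmd13 was at 58.1, 56.9 and 60.1 FPKM with 15d-PGJ2-PC, 69.8, 80.3 and 69.2 FPKM with 15d-PGJ2 and 40.6, 44.6 and 36.6 FPKM in controls. Psmd6 was at 59.9, 61.5 and 63.8 FPKM with 15d-PGJ2-PC, 72.3, 81.2 and 77.4 FPKM with 15d-PGJ2 and 37.4, 44.3 and 38.6 FPKM in controls. These 3 were among the scarcer subunits of the lid, and each was above controls in every treated library. Psmd7 was at 93.6, 104 and 108 FPKM with 15d-PGJ2-PC, 112, 118 and 121 FPKM with 15d-PGJ2 and 59.5, 56.4 and 64.7 FPKM in controls, and its difference between the compounds fell just short of the threshold (log2 difference -0.20, 95% interval -0.34 to -0.06, adjusted p = 0.0511). Psmd8 departed from the other lid members. It was at 137, 129 and 125 FPKM with 15d-PGJ2-PC, 144, 144 and 136 FPKM with 15d-PGJ2 and 125, 114 and 111 FPKM in controls, so 1 15d-PGJ2-PC library lay below the highest control. Its log2 difference was 0.16 ± 0.053 with 15d-PGJ2-PC (adjusted p = 0.0477) and 0.27 ± 0.053 with 15d-PGJ2 (adjusted p = 0.0016). The first of these calls was lost in 11 of 17 alternative settings, with adjusted p from 0.0114 to 0.162, among them those without 15d-PGJ2-PC replicate 1 (0.162) or 2 (0.0935), 15d-PGJ2 replicate 1 (0.0591), 2 (0.0609) or 3 (0.0526), and control replicate 2 (0.133) or 3 (0.144).

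**Figure D2:**
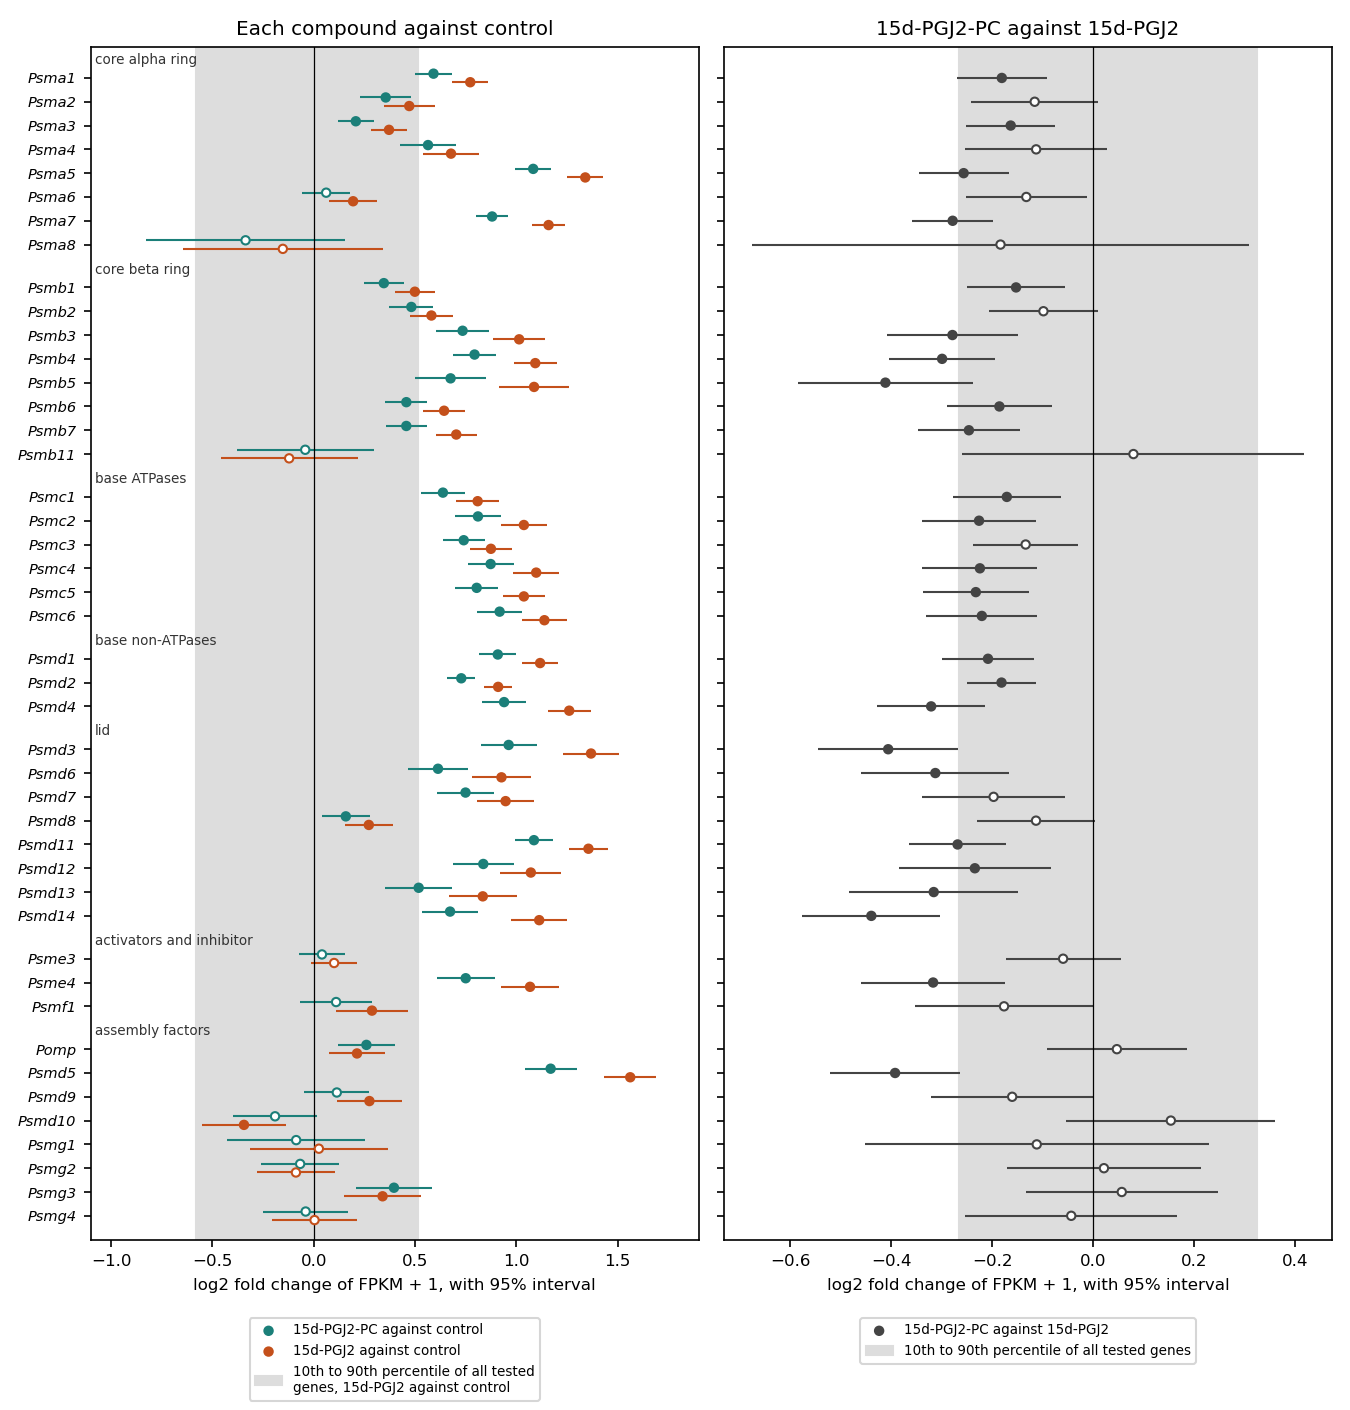
Log2 difference (log2(FPKM + 1) scale, limma) of each of the 44 members, by class, with its 95% interval, in the 3 comparisons (either compound with control, and the compounds with each other). Filled points passed the test and open points did not, and the grey band runs from the 10th to the 90th percentile of all tested genes. In the panel against control the band is that of 15d-PGJ2 only (-0.58 to 0.51). The same percentiles for 15d-PGJ2-PC against control, not drawn, are -0.35 and 0.34. Regulatory particle genes lie mostly around 0.80 and 1.04 against control, with Psmd8 at 0.16 and 0.27, and most chaperones of the core lie near 0 in every comparison.

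The median rise was larger in the regulatory particle than in the core, with overlapping ranges. Over the 14 core subunits without Psma8 and Psmb11, the median log2 difference was 0.52 with 15d-PGJ2-PC, with 13 called higher, and 0.69 with 15d-PGJ2, with 14 called higher. Over the 17 regulatory particle subunits among the members it was 0.80 with 15d-PGJ2-PC and 1.04 with 15d-PGJ2, with 17 called higher each time. Adrm1 and Shfm1 lie outside the symbol rule and are not among them. With 15d-PGJ2-PC single core subunits ran 0.06 to 1.08 and regulatory particle subunits 0.16 to 1.09. With 15d-PGJ2 these ranges were 0.19 to 1.34 and 0.27 to 1.37. In level, the core stood above the regulatory particle in each group. The median of the subunits' mean levels was 143 FPKM with 15d-PGJ2-PC, 163 FPKM with 15d-PGJ2 and 99.4 FPKM in controls for the core, and 102 FPKM with 15d-PGJ2-PC, 117 FPKM with 15d-PGJ2 and 56.0 FPKM in controls for the regulatory particle. These are descriptions, and the difference between the classes was not tested.

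Across the 31 subunits of the core and regulatory particle, levels lay closer together in treated cells. The SD of log2 FPKM over the 31 genes was 0.52 to 0.53 with 15d-PGJ2-PC, 0.51 to 0.52 with 15d-PGJ2 and 0.61 to 0.62 in controls, by library, with no overlap between treated and control libraries. The most abundant subunit had 3.59 times the mean FPKM of the scarcest with 15d-PGJ2-PC, 3.53 times with 15d-PGJ2 and 5.07 times in controls. Psmb4 was the most abundant and Psmd13 or Psmd12 the scarcest in treated libraries, while Psma6 was the most abundant and Psmd12 the scarcest in controls. Among the 31 genes, Psma6 ranked 4 with 15d-PGJ2-PC, 6 with 15d-PGJ2 and 1 in controls, and Psmd8 ranked 13 with 15d-PGJ2-PC, 14 with 15d-PGJ2 and 4 in controls. Psma5 moved the other way, ranking 9 with 15d-PGJ2-PC, 8 with 15d-PGJ2 and 17 in controls, as did Psmd3, ranking 18, 11 and 23 in the same order of groups.

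**Figure D3:**
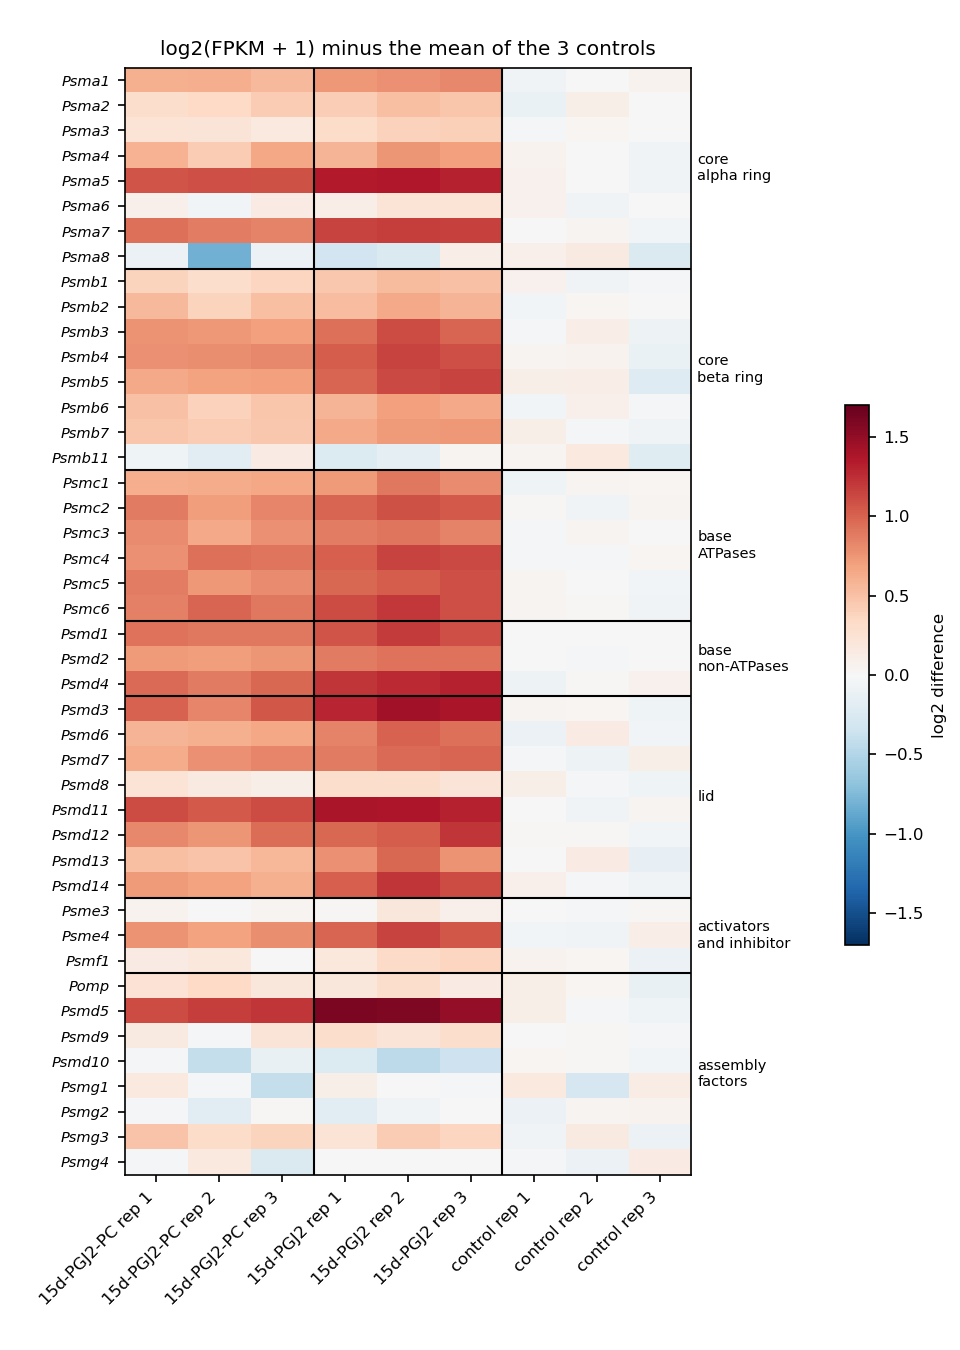
Each row is a proteasome gene and each column a library (15d-PGJ2-PC, 15d-PGJ2, control); colour gives log2(FPKM + 1) minus the mean of the 3 control libraries. The libraries of a group are alike, and the rows that stay pale are Psma6, Psmb11, Psmd8, Psme3, Psmf1 and most assembly factors. Psma8 is pale too except in replicate 2 of 15d-PGJ2-PC, where it was at 0.32 FPKM.

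Regulators that bind the core in place of the usual cap were mixed. Psme4, a large nuclear activator, was at 30.3, 28.8 and 31.02 FPKM with 15d-PGJ2-PC, 35.7, 39.9 and 37.5 FPKM with 15d-PGJ2 and 16.8, 16.7 and 18.97 FPKM in controls, with the groups apart. Its log2 difference was 0.75 ± 0.065 with 15d-PGJ2-PC and 1.07 ± 0.065 with 15d-PGJ2 (adjusted p = 1.19e-05 and 2.36e-07). Psme3, the nuclear activator of the same family as Psme1 and Psme2, was at 39.4, 37.7 and 39.03 FPKM with 15d-PGJ2-PC, 38.1, 43.3 and 39.9 FPKM with 15d-PGJ2 and 37.8, 36.95 and 38.04 FPKM in controls. It did not pass against controls with 15d-PGJ2-PC (log2 difference 0.04, 95% interval -0.07 to 0.15, adjusted p = 0.614) or with 15d-PGJ2 (0.10, -0.01 to 0.21, adjusted p = 0.136). Under quantile normalization the adjusted p of Psme3 with 15d-PGJ2 was 0.0273, within a range of 0.0273 to 0.439 over 17 alternative settings. Psmf1, an inhibitor of the core in vitro, was at 10.5, 10.8 and 9.46 FPKM with 15d-PGJ2-PC, 10.8, 11.99 and 12.4 FPKM with 15d-PGJ2 and 9.82, 9.69 and 8.76 FPKM in controls. It did not pass with 15d-PGJ2-PC (0.11 ± 0.079, adjusted p = 0.346) and was higher than in controls with 15d-PGJ2 (0.29 ± 0.079, adjusted p = 0.0122).

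The assembly factors were mixed. Of 8 genes, 3 rose with 15d-PGJ2-PC and 5 did not pass, and with 15d-PGJ2 4 rose, 1 fell and 3 did not pass. Over all tested genes, 27.8% with 15d-PGJ2-PC and 47.2% with 15d-PGJ2 were called in either direction. Called higher were 13.8% and 22.2%, and called lower 14.1% and 25%, in that order. Whether these 8 genes differ from all tested genes in this was not tested. The median log2 differences of the class were 0.04 with 15d-PGJ2-PC and 0.12 with 15d-PGJ2. Psmd5, Psmd9 and Psmd10 are chaperones that hold ATPase pairs of the base during assembly, and they went different ways. Psmd5 (chr2:34852087-34870965) was at 41.99, 44.03 and 45.1 FPKM with 15d-PGJ2-PC, 59.5, 58.9 and 54.8 FPKM with 15d-PGJ2 and 20.3, 18.5 and 17.9 FPKM in controls. The 3 groups were far apart, and the log2 difference was the largest of any member, 1.17 ± 0.058 with 15d-PGJ2-PC and 1.56 ± 0.058 with 15d-PGJ2 (adjusted p = 2.76e-07 and 8.53e-09). Psmd9 (chr5:123228190-123250126) was at 11.6, 10.1 and 12.2 FPKM with 15d-PGJ2-PC, 12.9, 12.2 and 12.99 FPKM with 15d-PGJ2 and 10.4, 10.4 and 10.1 FPKM in controls. It did not pass with 15d-PGJ2-PC (0.11 ± 0.073, adjusted p = 0.288) and was higher than in controls with 15d-PGJ2 (0.27 ± 0.073, adjusted p = 0.00982).

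Psmd10 (chrX:140948425-140956711), also known as gankyrin, was the only member called lower than in controls, and this was with 15d-PGJ2. It was at 22.6, 17.1 and 21.03 FPKM with 15d-PGJ2-PC, 19.5, 16.7 and 17.8 FPKM with 15d-PGJ2 and 23.6, 23.5 and 22.2 FPKM in controls. Of the 15d-PGJ2-PC libraries, 1 lay among the controls, and every 15d-PGJ2 library was below every control. The log2 difference was -0.19 ± 0.093 with 15d-PGJ2-PC (95% interval -0.40 to 0.02, adjusted p = 0.163) and -0.34 ± 0.093 with 15d-PGJ2 (adjusted p = 0.011).

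Pomp, which drives joining of the beta rings and is the first protein the new enzyme degrades, started from a high level. It was at 174, 184 and 167 FPKM with 15d-PGJ2-PC, 167, 179.95 and 161 FPKM with 15d-PGJ2 and 156, 149 and 134 FPKM in controls. Every treated library was above every control, and the treated groups overlapped. The log2 difference of Pomp was 0.26 ± 0.063 with 15d-PGJ2-PC (adjusted p = 0.0105) and 0.21 ± 0.063 with 15d-PGJ2 (adjusted p = 0.0169). The second call was lost without 15d-PGJ2 replicate 2 (adjusted p = 0.068) or control replicate 3 (0.0553), within a range of 0.00338 to 0.068 over 17 alternative settings. Between the compounds Pomp differed by 0.05 (95% interval -0.09 to 0.19, adjusted p = 0.665).

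Psmg1 to Psmg4 act as pairs that guide the alpha ring, Psmg1 with Psmg2 and Psmg3 with Psmg4. Psmg3 was at 16.1, 14.2 and 14.9 FPKM with 15d-PGJ2-PC, 13.3, 15.4 and 14.6 FPKM with 15d-PGJ2 and 10.7, 12.6 and 10.4 FPKM in controls. It rose with both compounds, by 0.40 with 15d-PGJ2-PC and 0.34 with 15d-PGJ2 (adjusted p = 0.00564 and 0.00756), on about 50 to 77 reads per library. Its partner Psmg4 was at 32.7, 37.6 and 27.98 FPKM with 15d-PGJ2-PC, 33.6, 33.6 and 33.6 FPKM with 15d-PGJ2 and 32.8, 31.1 and 36.9 FPKM in controls. Psmg1 was at 10.3, 8.87 and 6.54 FPKM with 15d-PGJ2-PC, 9.77, 8.95 and 8.90 FPKM with 15d-PGJ2 and 10.2, 7.21 and 9.95 FPKM in controls. Psmg2 was at 9.18, 7.99 and 9.41 FPKM with 15d-PGJ2-PC, 7.98, 8.93 and 9.23 FPKM with 15d-PGJ2 and 8.58, 9.68 and 9.71 FPKM in controls. The groups overlapped for all 3, and none passed in any comparison. With 15d-PGJ2 the 95% interval of the log2 difference ran -0.21 to 0.21 for Psmg4, -0.32 to 0.37 for Psmg1 and -0.28 to 0.10 for Psmg2. Psmg1 and Psmg2 rested on about 37 to 59 and 46 to 56 reads per library, so small changes were not detectable at this depth.

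The differences between the compounds were modest, and several calls were close to the threshold. The log2 difference was -0.44 for Psmd14, -0.41 for Psmb5, -0.41 for Psmd3 and -0.39 for Psmd5, and it was -0.15 for Psmb1, the smallest that passed. The call of Psma3 (-0.16, adjusted p = 0.0142) was lost without 15d-PGJ2-PC replicate 3 (0.0546) or 15d-PGJ2 replicate 2 (0.0541) or 3 (0.0591), in a range of 0.00542 to 0.0591 over 17 alternative settings. Calls of Psmb1, Psmb6, Psmc1 and Psmd12 were each lost without at least 3 of the 6 treated libraries taken one at a time. Over all alternatives their adjusted p ran 0.0155 to 0.115 for Psmb1, 0.00754 to 0.0714 for Psmb6, 0.0126 to 0.106 for Psmc1 and 0.0148 to 0.119 for Psmd12. Without replicate 2 of 15d-PGJ2 these were 0.11, 0.0698, 0.106 and 0.0537, and without replicate 3 of it 0.081, 0.0539, 0.0728 and 0.109, in the same order of genes. Without replicate 2 of 15d-PGJ2-PC they were 0.115, 0.0714, 0.0762 and 0.119. Without replicate 1 of 15d-PGJ2-PC, Psmc1 was at 0.0915 and Psmd12 at 0.0938, and without replicate 3 of it Psmb1 was at 0.0613 and Psmc1 at 0.0511. Psmd7 was called lower without 15d-PGJ2-PC replicate 3 (0.0393), control replicate 2 (0.0469) or control replicate 3 (0.0346), in a range of 0.0231 to 0.171. The number of members called lower was 21 to 27 when each library was left out in turn.

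The 3 catalytic subunits have interferon-inducible counterparts, Psmb8 for Psmb5, Psmb9 for Psmb6 and Psmb10 for Psmb7. These, with the activator subunits Psme1 and Psme2, went down where the constitutive genes went up: 5 of 5 were lower than in controls with each compound, where 14.1% of all tested genes were called lower with 15d-PGJ2-PC and 25% with 15d-PGJ2. Their median log2 difference was -0.27 with 15d-PGJ2-PC and -0.58 with 15d-PGJ2. With 15d-PGJ2-PC the calls of Psmb9 and Psme1 were lost in 5 and 6 of 17 alternative settings, with adjusted p of 0.0139 to 0.0839 and 0.00971 to 0.103; Psmb9 was at 0.0696 and 0.0801 without 15d-PGJ2-PC replicate 1 and 2 and at 0.0839 without control replicate 1, and Psme1 was at 0.101 and 0.0564 without 15d-PGJ2-PC replicate 1 and 2 and at 0.0538 and 0.103 without control replicate 1 and 2. The ratio of Psmb8 to Psmb5 in FPKM was 0.998, 0.917 and 0.882 with 15d-PGJ2-PC, 0.635, 0.522 and 0.528 with 15d-PGJ2 and 1.72, 1.67 and 2.02 in controls. That of Psmb9 to Psmb6 was 0.363, 0.38 and 0.399 with 15d-PGJ2-PC, 0.25, 0.192 and 0.2 with 15d-PGJ2 and 0.766, 0.596 and 0.606 in controls. For Psmb10 to Psmb7 it was 0.466, 0.489 and 0.45 with 15d-PGJ2-PC, 0.288, 0.252 and 0.237 with 15d-PGJ2 and 0.773, 0.845 and 0.848 in controls. In each case controls were highest, 15d-PGJ2 lowest, and the groups did not overlap. An exact 2-sided permutation test gave p = 0.1 for each of the 9 comparisons of log2 ratios (adjusted p = 0.1 over the 9), which is the smallest that 3 libraries against 3 can give.

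**Figure D4:**
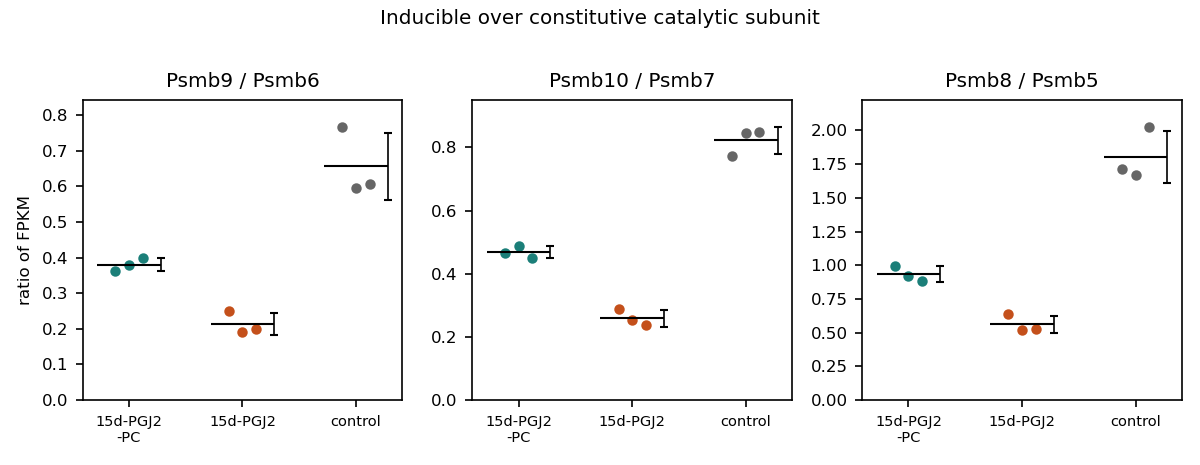
Ratio of FPKM of each interferon-inducible catalytic subunit to its constitutive counterpart in every library of 15d-PGJ2-PC, 15d-PGJ2 and control; bars give the mean and SD of 3 libraries. Each ratio is highest in controls, with Psmb8 to Psmb5 at 1.80 on average, and lowest with 15d-PGJ2, where it is 0.562.

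Proteins that work with the proteasome were read from a list of 22 genes, of which 21 are in the table; Paaf1 was not analysed here. With 15d-PGJ2-PC 15 of 21 rose, where 13.8% of all tested genes were called higher. With 15d-PGJ2 16 of 21 rose, where 22.2% of all tested genes were called higher. Of the 21, 0 were called lower by limma against controls in either comparison (14.1% and 25% of all tested genes), nor was any lower at an unadjusted p under 0.05 (0 of 21). Adrm1, the ubiquitin receptor of the base, was at 131, 129 and 143 FPKM with 15d-PGJ2-PC, 166, 183 and 177 FPKM with 15d-PGJ2 and 70.2, 60.03 and 60.4 FPKM in controls, and its 3 groups were apart. The log2 difference of Adrm1 was 1.07 with 15d-PGJ2-PC and 1.45 with 15d-PGJ2 (adjusted p = 1.3e-06 and 3.19e-08). Of the deubiquitinases that dock on the regulatory particle, Usp14 rose by 0.52 and 0.78 with the 2 compounds in that order, while Uchl5 did not pass (-0.09 and -0.01). Zfand2a, an arsenite-inducible protein that binds the cap, was at 76.9, 75.96 and 75.5 FPKM with 15d-PGJ2-PC, 100.2, 114 and 119.61 FPKM with 15d-PGJ2 and 28.5, 28.4 and 27.6 FPKM in controls. It had the largest difference of the list, 1.40 with 15d-PGJ2-PC and 1.94 with 15d-PGJ2 (adjusted p = 8.45e-08 and 2.56e-09). Shfm1, the small subunit of the lid that the symbol rule does not take, did not pass (-0.10 and -0.09).

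Shuttle and extraction factors followed a similar course. Rad23b, Ubqln1 and Ubqln2, which carry ubiquitinated proteins to the proteasome, rose by 0.44 to 0.69 with 15d-PGJ2-PC and 0.78 to 0.86 with 15d-PGJ2, and Ubqln4 did not pass. Vcp, the segregase that pulls proteins from membranes and complexes, rose with its cofactors Nploc4 and Ufd1l by 0.54, 0.96 and 0.77 with 15d-PGJ2-PC and 0.71, 1.15 and 0.98 with 15d-PGJ2. Nfe2l1, the transcription factor that induces proteasome genes when the proteasome is impaired, was at 165, 163 and 169 FPKM with 15d-PGJ2-PC, 160.21, 166 and 159 FPKM with 15d-PGJ2 and 149, 151 and 152 FPKM in controls. Every treated library was above every control by a small margin, and its log2 difference was 0.14 ± 0.032 with 15d-PGJ2-PC and 0.10 ± 0.032 with 15d-PGJ2 (adjusted p = 0.00874 and 0.0229). Of the enzymes that release its active form, Ngly1 rose by 0.35 and 0.32 in that order and Ddi2 did not pass. Between the compounds, 10 of the 21 were lower with 15d-PGJ2-PC, where 8.3% of all tested genes were called lower, and 0 were called higher by limma (0 at an unadjusted p under 0.05).

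Because so many members moved together, their promoters were read for short motifs linked to stress and basal transcription. RefSeq promoter windows (GRCm38.p6, 250 bases before to 50 after the start) were found for 36 of the 44 members. The antioxidant response element core TGACNNNGC, searched on both strands, was present in 6 of the 36 (16.67%), namely Psmb5, Psmb6, Psmc6, Psmd12, Psmd9 and Psme4, and in 13.98% of all 26994 genes with a window. The shorter form TGANNNNGC, which includes every match of the first, was present in 20 of 36 (55.56%) and in 45.03% of all genes. The heat shock element pair, TTCNNGAA or GAANNTTC, was present in 4 of 36 (11.11%) and in 16.97% of all genes, and the CCAAT box, again on either strand, in 13 of 36 (36.11%) and in 41.04%. Whether the members' shares differ from those of all genes was not tested, and a match describes letters only. The genes with a window include many outside the 11309 tested for expression.

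The stretches printed here run from 80 bases before the start to 20 after it, 5′ to 3′ on the gene's strand, and were chosen after motif positions were seen. Capitals mark the antioxidant response element core (on either strand) in Psmb5, Psmb6, Psmd9 and Psme4. Psmd5 and Psmd11, members with large rises, hold no match in this stretch, and in Psmd10, the member that fell, capitals mark the CCAAT box as it reads on the other strand. They lie at chr14:54617976-54618075 (minus strand) for Psmb5, chr11:70525277-70525376 (plus strand) for Psmb6, chr5:123228110-123228209 (plus strand) for Psmd9, chr11:30771695-30771794 (plus strand) for Psme4, chr2:34870943-34871042 (minus strand) for Psmd5, chr11:80428535-80428634 (plus strand) for Psmd11 and chrX:140956692-140956791 (minus strand) for Psmd10.
Psmb5: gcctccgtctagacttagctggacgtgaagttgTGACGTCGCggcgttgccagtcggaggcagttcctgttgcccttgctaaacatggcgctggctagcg
Psmb6: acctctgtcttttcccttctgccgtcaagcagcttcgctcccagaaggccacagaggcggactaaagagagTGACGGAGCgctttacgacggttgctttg
Psmd9: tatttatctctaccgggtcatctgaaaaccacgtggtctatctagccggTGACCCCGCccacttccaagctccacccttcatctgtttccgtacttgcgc
Psme4: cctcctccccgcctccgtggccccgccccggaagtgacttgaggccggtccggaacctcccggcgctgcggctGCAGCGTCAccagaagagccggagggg
Psmd5: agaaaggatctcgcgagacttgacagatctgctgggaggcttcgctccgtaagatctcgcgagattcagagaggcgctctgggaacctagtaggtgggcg
Psmd11: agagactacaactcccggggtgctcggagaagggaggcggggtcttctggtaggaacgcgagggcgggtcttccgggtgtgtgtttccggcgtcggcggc
Psmd10: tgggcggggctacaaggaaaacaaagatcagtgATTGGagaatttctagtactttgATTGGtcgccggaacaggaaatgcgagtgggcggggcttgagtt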

How the data were processed

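RNA of mouse macrophages was sequenced in 9 libraries, 3 per group, after Trizol extraction and Illumina's TruSeq RNA kit, per the labels' protocols. The authors deposited 1 table of FPKM values (fragments scaled to gene length and library depth) with 2 decimals, per the file headers, for 18049 genes. Reads were placed on build mm10 with BWA, per the submitters' processing notes; which BWA version and which counting tool is not given in the sources used here. The table was used without further scaling, and 23 symbols that a spreadsheet had turned into dates were restored from the Entrez number. No count model was applied to these FPKM values, and reads shared with pseudogenes cannot be separated.

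Reads per library, about 5.34 to 5.5 M, were estimated from the steps between low values. At the chosen depths 64.3% to 68.7% of low values were whole within 0.1 read, where 20% would be by chance at a depth fixed beforehand. Each depth was chosen to give the highest share, so the share by chance is higher, and it was not computed. Reads per gene given in the text are such estimates. They set the precision of low members, and cover counting error only.

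The 11309 genes that reached 1 FPKM in 3 or more libraries were tested on log2(FPKM + 1) with limma 3.58.1 in R 4.3.3 (intensity trend, all 9 libraries in 1 fit, 3 contrasts, 2-sided), with Benjamini-Hochberg adjustment over all tested genes and a threshold of 0.05. The script was tested on simulated data. Ratios of subunits were compared by exact permutation. Coordinates and promoter windows are RefSeq's for GRCm38.p6; all 44 members matched by Entrez number and 36 have a window. Alternatives were a pseudocount of 0.1, no filter, a filter of 5 FPKM, no trend, the 6 libraries of a contrast only, quantile and median ratio scaling, the replicate number as a block, and each library left out in turn.

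Members, class lists and associated genes were chosen with earlier results of these data known. Every member and every gene of these lists could be named. Values in each library were to be given for the 2 largest and the smallest differences of each class, the catalytic subunits, Pomp and every member that fell or did not pass in any comparison, which takes in all 44. Some genes of the lists are not reported here by name.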

Additional observations from a re-analysis of the deposited data

How the results depend on the processing

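Counts of members called against controls moved little. With each library left out in turn they were 33 to 34 for 15d-PGJ2-PC and 37 to 38 for 15d-PGJ2, and 21 to 27 for 15d-PGJ2-PC against 15d-PGJ2, where 0 to 1 member was called higher. The members' median log2 difference was then 0.58 to 0.63 for 15d-PGJ2-PC against control, 0.77 to 0.86 for 15d-PGJ2 against control and -0.23 to -0.17 for 15d-PGJ2-PC against 15d-PGJ2. Quantile normalization gave a median of 0.88 for 15d-PGJ2 against control, and the cause was not tested. With the interquartile range in place of the SD, the mean spread of log2 FPKM over the 31 subunits was 0.74 with 15d-PGJ2-PC, 0.73 with 15d-PGJ2 and 0.92 in controls. The shorter response element core was held by 20 members in place of 6, since it fixes fewer letters. Of 2238 values of single members under an alternative, 2188 kept their side of the threshold, 40 lost the call and 10 gained it, in 12 of 132 pairs of member and comparison. The sign differed in 16 of the 2238, and 0 of these 16 had a call in either fit. A filter of 5 FPKM left 42 members in the test. Deviations of libraries with the same replicate number correlated at -0.04 to 0.05, and those with different numbers at -0.07 to 0.10. These ranges overlap, and they cannot settle whether libraries with the same number were paired. With the replicate block, 34 members were called for 15d-PGJ2-PC against control, 38 for 15d-PGJ2 against control and 27 for 15d-PGJ2-PC against 15d-PGJ2. Depth limits Psma8, Psmb11, Psmg1 and Psmg2, the members with the fewest reads.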
